A study of Mus musculus with 12 samples.

Results

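The promoter of Nkx2-1, which encodes a homeodomain transcription factor of the developing thyroid, lung and forebrain, was 1 of 24 named baits in a CaptureC experiment in mouse embryonic stem cells (ESCs). All 27 contacts listed for this bait were taken, of 414 contacts of the named baits and 842 contacts of all 44 baits, without regard to their values. Of these 27 contacts, 13 overlapped a RING1B and PCGF2 peak (called PCGF2 sites) and 14 did not (called other sites). CaptureC counts how often the baited restriction fragment is ligated to other fragments after crosslinking, so fragments that lie close to the promoter in the nucleus gain reads.

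All cells were E14 ESCs, in 4 groups of 3 replicates. PRC1CPM cells (clone 41, a single clone) carry Ring1a with I50A and D53K, a Ring1b allele that Cre switches from wild type to I53A and D56K, and Rosa26::ERT2-Cre; they were untreated or received 800 nM hydroxytamoxifen (OHT) for 72 h. Both PRC1CPM groups therefore lack intact RING1A, and after OHT the RING1B that is made is catalytically inactive. PRC1DEG cells (Tir1, Ring1a-/-, Ring1bAID) received 0.5 mM auxin for 6 h, which leads to degradation of RING1B. The Control line carries Tir1 with neither the Ring1a deletion nor the degron, and was likewise kept in auxin for 6 h. PRC1DEG and Control are therefore different lines, and the Ring1a deletion and the loss of RING1B cannot be told apart between them. Each group was deposited as 1 value pooled from its 3 replicates, so the spread between replicates is unknown, and every test compares pooled libraries, not conditions.

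Polycomb repressive complex 1 (PRC1) contains RING1A or RING1B, which place ubiquitin on histone H2A. Canonical PRC1, which holds PCGF2 or PCGF4, binds H3K27me3 through its CBX subunit and can bring distant target sites together. In ESCs such sites are mostly CpG islands at promoters of silent developmental regulators, Nkx2-1 among them.

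The baited DpnII fragment lay at chr12:56536711-56536913 in GRCm38, in the 5′ UTR of the more distal of the Nkx2-1 transcription start sites (TSSs), which is at position 56536908 on the minus strand. The other TSS was 1605 bp from the bait. The ends of its 70-bp capture oligonucleotides are shown because they fix which fragment was measured, with the DpnII sites in capitals.
left end: GATCattctgcttcaattgggcgcctctca
right end: cagcctcattgctgttaccaggtcagGATC

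The PCGF2-site contacts reached developmental regulators on both sides of the bait, and a protein-coding TSS lay inside 8 of the 13 and within 5 kb of 12. None of the 14 other-site contacts held a TSS, and 4 had one within 5 kb. Over all named baits a TSS lay inside 44.6% of the contacts at PCGF2 sites and 4.2% of those at other sites. The observed over expected ratio of CpG in the summit fragment (the fragment that stands for the contact) had a median of 0.51 at the 13 PCGF2 sites, with a range from 0.079 to 0.914. At the 14 other sites the median was 0.196, with a range from 0.082 to 0.361. The medians over all named baits were 0.492 and 0.230. The highest ratio was at Insm2, and the PCGF2 sites of this bait were not uniformly rich in CpG. The 150 bases with the most CG outside annotated UTRs in the summit fragments of 6 PCGF2-site contacts are shown, with CG in capitals, because these contacts carried nearly all of the reads described below. They are on the plus strand and overlap 0 bases of a UTR in the full GENCODE annotation.
Nkx2-9, chr12:56613285-56613434: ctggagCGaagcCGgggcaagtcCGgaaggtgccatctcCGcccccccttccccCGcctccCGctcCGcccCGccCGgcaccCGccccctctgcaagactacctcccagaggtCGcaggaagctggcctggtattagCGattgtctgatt
Pax9, chr12:56696508-56696657: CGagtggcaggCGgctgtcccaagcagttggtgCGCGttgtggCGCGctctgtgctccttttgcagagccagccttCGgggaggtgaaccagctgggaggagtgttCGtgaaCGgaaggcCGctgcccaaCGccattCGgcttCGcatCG
Slc25a21, chr12:57196712-57196861: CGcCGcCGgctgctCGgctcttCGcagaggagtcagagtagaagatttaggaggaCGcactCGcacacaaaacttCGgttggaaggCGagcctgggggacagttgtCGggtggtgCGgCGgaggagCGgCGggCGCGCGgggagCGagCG
Foxa1, chr12:57542036-57542185: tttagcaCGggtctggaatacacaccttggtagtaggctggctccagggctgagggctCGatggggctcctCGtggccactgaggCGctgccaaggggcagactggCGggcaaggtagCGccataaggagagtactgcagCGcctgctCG
Sstr1, chr12:58213089-58213238: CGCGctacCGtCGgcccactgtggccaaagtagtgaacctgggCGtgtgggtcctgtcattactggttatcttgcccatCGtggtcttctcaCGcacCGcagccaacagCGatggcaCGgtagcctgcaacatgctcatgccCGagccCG
Npas3, chr12:53246939-53247088: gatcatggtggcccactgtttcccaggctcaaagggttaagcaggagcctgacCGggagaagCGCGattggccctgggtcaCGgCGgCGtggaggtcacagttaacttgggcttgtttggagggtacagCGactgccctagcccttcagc

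These 6 windows held 12, 14, 19, 8, 12 and 7 CG dinucleotides, in the order shown. At other sites the corresponding windows held up to 7 CG, as many as at Npas3. The window at Bcl11b, also a PCGF2 site, held 5. Those of the 2 other-site contacts with the most reads, both on the Brms1l side of the bait, held 2 and 1 CG.
Other site 449 kb away, chr12:56087535-56087684: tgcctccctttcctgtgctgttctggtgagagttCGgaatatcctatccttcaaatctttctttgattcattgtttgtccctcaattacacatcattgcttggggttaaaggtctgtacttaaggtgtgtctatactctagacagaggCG
Other site 688 kb away, chr12:55847994-55848143: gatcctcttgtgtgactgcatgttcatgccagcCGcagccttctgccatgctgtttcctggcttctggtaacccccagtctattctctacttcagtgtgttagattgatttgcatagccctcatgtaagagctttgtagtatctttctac

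Of a list of 28 developmental regulators and neighbouring genes on chromosome 12, 9 had a contact within 5 kb of a TSS, and for 7 of these it was at a PCGF2 site. Among these 7 were Nkx2-9, Pax9, Foxa1, Sstr1, Bcl11b and Slc25a21. The other 2, Mipol1 and Ttc6, had only other-site contacts. The Osr1 contact lay in the coding sequence of Osr1, 5.08 kb from its TSS. Insm2 and Npas3 were not on the list. Six4, Six6, Sox11, Twist1 and Gsc, which are developmental regulators on the same chromosome, had no listed contact.

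Nearly all of the reads in the listed contacts lay in a chain of contacts on the right of the bait, towards higher coordinates. Reads of the bait outside the listed contacts are not counted here. In untreated PRC1CPM cells the 27 contacts held 4955 reads, and the contacts over Pax9, Nkx2-9 and Foxa1 together held 89.5% of them. In Control cells they held 91.1% of 4389 reads. Reads were recovered from the normalized counts, in which 1 read was worth 0.00112, 0.00122, 0.00159 and 0.00149 in the untreated, OHT, Control and PRC1DEG libraries. After OHT and in PRC1DEG cells 2019 and 925 reads remained. Normalized counts below are given per DpnII fragment unless per kb is stated. Intervals are 95% and cover counting error only, since they were taken from the reads of pooled replicates. The methods name no molecular identifiers for these reads.

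**Figure D1:**
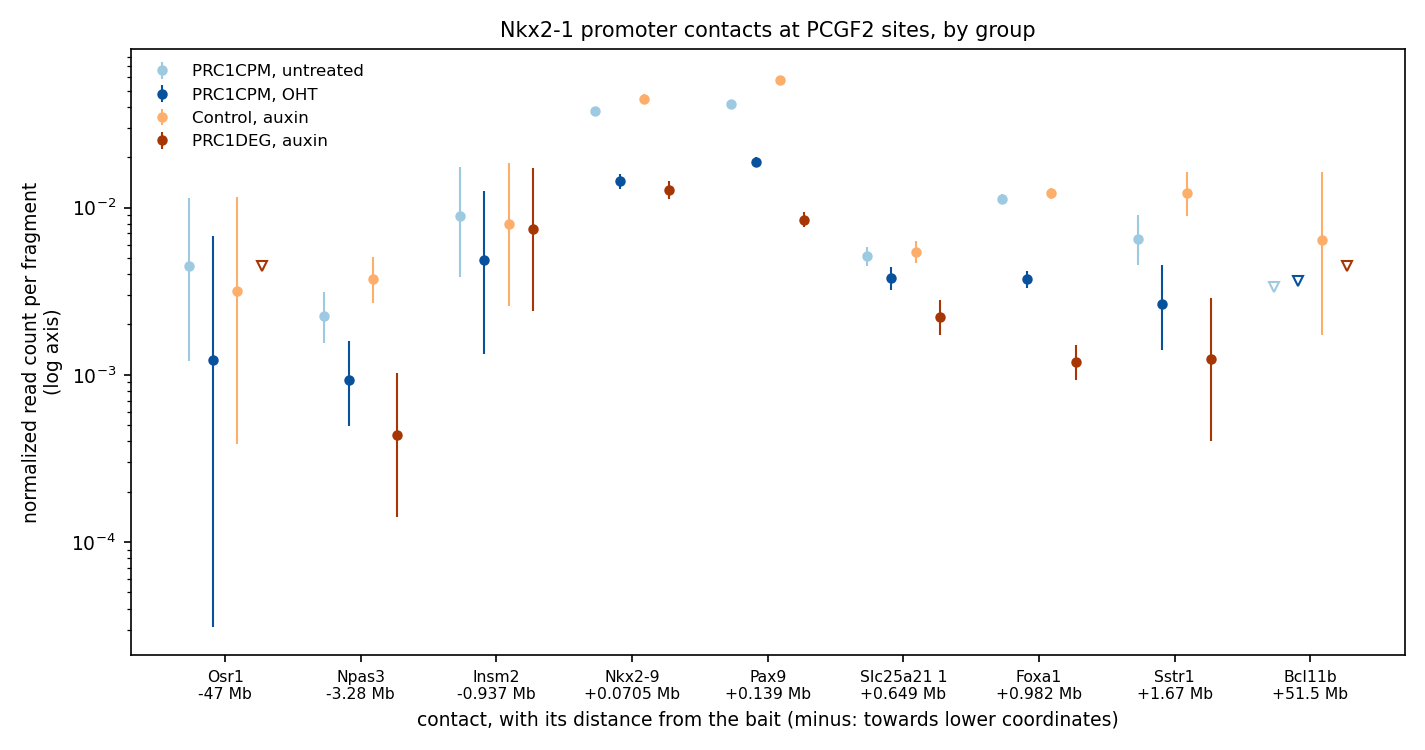
Normalized read count per DpnII fragment (log axis) of 9 Nkx2-1 contacts at PCGF2 sites in the 4 groups, ordered along the chromosome, with exact Poisson 95% intervals; open triangles mark the value of 3 reads, the limit that a count of 0 allows. Pax9 and Nkx2-9 stood above the other contacts in both reference groups, and the PRC1DEG level was lower than the Control level at all 9 contacts drawn, 2 of which had no PRC1DEG read.

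Pax9, a paired-box transcription factor gene, gave the contact with the most reads. It covered 67 fragments at chr12:56675644-56711915, 139 kb from the bait, and its summit fragment lay in the coding sequence of Pax9. It held 2502 reads in untreated PRC1CPM cells, 1030 under OHT, 2451 in the Control line and 382 in PRC1DEG cells. The normalized count was 0.0417 per fragment in untreated cells and 0.0188 after OHT, and 0.0582 in Control and 0.00847 in PRC1DEG cells. It was thus 45.0% of the untreated level after OHT (interval 41.8 to 48.4%) and 14.6% of the Control level in PRC1DEG cells (13.1 to 16.2%). The intervals of the treated and reference libraries did not overlap in either system.

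Nkx2-9, a homeobox gene of the same family as Nkx2-1, was the contact closest to the bait and lay 70.5 kb away at chr12:56607402-56620012 (31 fragments), and its summit fragment held coding sequence and UTR of Nkx2-9. It held 1048 reads in untreated cells, 365 under OHT, 871 in Control and 265 in PRC1DEG cells. The normalized counts were 0.0377, 0.0144, 0.0447 and 0.0127 per fragment in the same order. The level after OHT was 38.1% of untreated (33.8 to 42.9%) and that in PRC1DEG cells 28.4% of Control (24.8 to 32.6%). Here the 2 treated libraries stood closer to each other than at Pax9. Per kb, Nkx2-9 was the highest contact of untreated cells (0.0927, interval 0.0872 to 0.0985) and stood above Pax9 (0.0770, 0.0740 to 0.0801), whereas per fragment Pax9 stood above Nkx2-9, so the order of these neighbours depended on the scale. In Control cells their intervals per kb overlapped (0.110 and 0.107). In PRC1DEG cells Nkx2-9 was higher on both scales.

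Foxa1 encodes a forkhead pioneer factor of endoderm. Its contact, 982 kb away at chr12:57518582-57555653, spanned 88 fragments, and its summit fragment held Foxa1 coding sequence and UTR. It held 884 reads in untreated cells, 268 under OHT, 676 in Control and 71 in PRC1DEG cells. The normalized counts per fragment were 0.0112, 0.00371, 0.0122 and 0.00120. Of the contacts with at least 30 reads in both reference groups, Foxa1 fell most in both systems by its ratio, to 33.1% of untreated after OHT (28.9 to 38.0%) and to 9.81% of Control in PRC1DEG cells (7.69 to 12.5%). Its interval overlapped those of Sstr1 and Npas3 in both systems, and that of Nkx2-9 after OHT.

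Slc25a21 encodes a mitochondrial carrier, and its other end at chr12:57185732-57203791 (49 fragments, 649 kb away) covered its TSS. It held 225 reads in untreated cells, 152 under OHT, 168 in Control and 73 in PRC1DEG cells. The normalized counts per fragment were 0.00512, 0.00378, 0.00545 and 0.00221. Among the contacts with at least 30 reads it retained the most, 73.8% of untreated after OHT (60.1 to 90.7%) and 40.6% of Control in PRC1DEG cells (30.9 to 53.4%).

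Sstr1 encodes a somatostatin receptor. Its contact at chr12:58211214-58214399 (6 fragments, 1674 kb away) held 35 reads in untreated cells, 13 under OHT, 46 in Control and 5 in PRC1DEG cells. Its level was 40.6% of untreated after OHT (21.7 to 75.9%) and 10.2% of Control in PRC1DEG cells (4.16 to 24.8%). On the left, the contact over Npas3, a neuronal bHLH-PAS factor gene, lay at chr12:53246939-53255338 (17 fragments, 3281 kb away). It held 34 reads in untreated cells, 13 under OHT, 40 in Control and 5 in PRC1DEG cells. Its level was 41.8% of untreated after OHT (22.3 to 78.4%) and 11.7% of Control in PRC1DEG cells (4.75 to 28.7%). Sstr1 and Npas3 thus gave like ratios from opposite sides of the bait, although their intervals were wide.

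The other 7 PCGF2-site contacts were single fragments with few reads. Insm2, a zinc finger gene of neuroendocrine cells 937 kb to the left at chr12:55598957-55600011, held 8 reads in untreated cells, 4 under OHT, 5 in Control and 5 in PRC1DEG cells. It was the PCGF2 site with the least change in PRC1DEG cells, at 93.4% of Control, but the interval ran from 29.0 to 301% and a 2-fold change in either direction was not detectable at this depth. Osr1, a zinc finger gene of kidney and limb 47.0 Mb to the left, held 4, 1, 2 and 0 reads in untreated, OHT-treated, Control and PRC1DEG cells. Bcl11b, a zinc finger gene of T cells and neurons 51.5 Mb to the right, held 4 reads in Control cells and 0 in the other 3 groups, so it was listed from the Control library alone. A count of 0 allows up to 3 reads, which is a normalized count of 0.00446 in PRC1DEG cells.

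The first question was how these contacts changed when PRC1 lost its catalytic activity. After OHT, 11 of the 13 PCGF2-site contacts were lower than in untreated cells, 1 was higher and Bcl11b was tied at 0. The median log2 change was -1.01 (quartiles -1.37 and -0.72), on the log2 scale of the count per fragment after a pseudocount of 0.000350 was added. At least 2-fold lower were 7 of the 13, against a background of 18.4% of all 414 contacts. An exact two-sided binomial test of the reads of both libraries (Benjamini-Hochberg adjusted over the 414 contacts) called 6 of the 13 lower and none higher, against 18.6% of all contacts called lower. The 6 were Nkx2-9, Pax9, Foxa1, Slc25a21, Sstr1 and Npas3. By this exact test the adjusted p was 2.40e-62 for Nkx2-9, 4.21e-64 for Foxa1, 0.0235 for Slc25a21, 0.0310 for Sstr1 and 0.0424 for Npas3. When the libraries were scaled to the reads of the named baits at other sites, 3 of the 6 remained called (Nkx2-9, Pax9 and Foxa1). The 117 PCGF2-site contacts of the other named baits had a median of -0.90. The summed count of the 13 contacts was 42.6% of untreated.

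The question for PRC1DEG cells was how the contacts changed when RING1B itself was removed. All 13 PCGF2-site contacts were lower than in Control cells, with a median log2 change of -2.43 (quartiles -3.02 and -1.48). At least 2-fold lower were 12 of the 13, all except Insm2, against a background of 26.8% of all contacts. The exact binomial test called the same 6 contacts lower as after OHT and none higher, against 20.5% of all contacts called lower. The adjusted p by this exact test ranged up to 1.19e-07, at Npas3. The other named baits had a median of -1.74 over their 117 PCGF2-site contacts. The summed count of the 13 contacts was 17.7% of Control. The 3 contacts with 0 reads in PRC1DEG cells, Osr1 and Bcl11b among them, have a change set by the pseudocount.

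Because contacts were listed from a score in any library, the medians were also taken over the contacts called in the reference group of the other system. Over the 9 PCGF2-site contacts called in Control cells the median change after OHT was -1.01, and over the 10 called in untreated PRC1CPM cells the median change in PRC1DEG was -2.08. At other sites the median change after OHT was -0.45 over the 2 called in Control cells. In PRC1DEG it was -0.09 over the 7 called in untreated PRC1CPM cells.

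**Figure D2:**
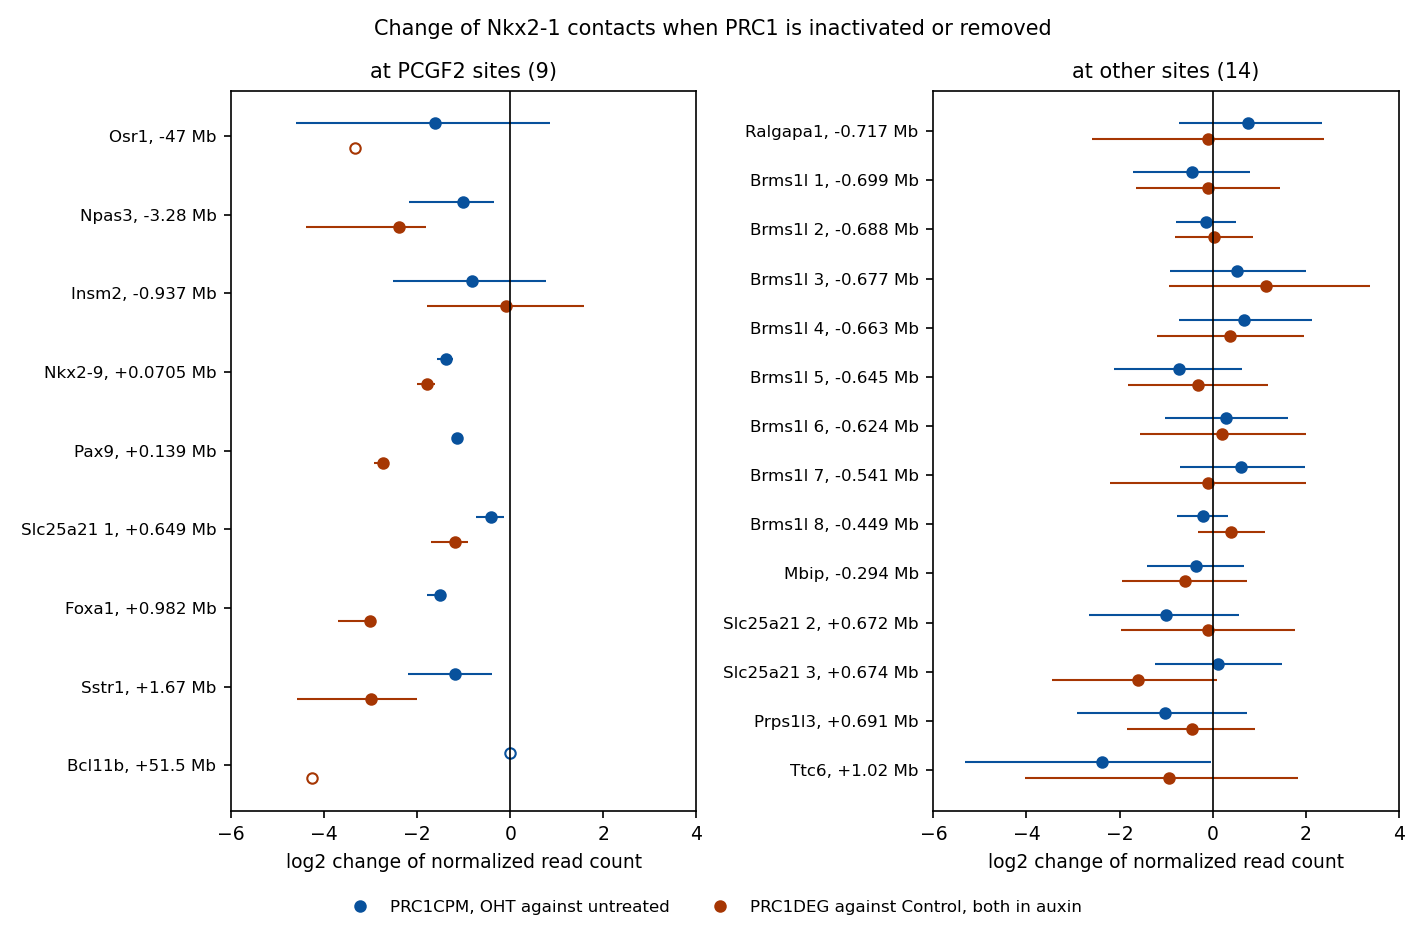
Log2 change of the normalized count per fragment for 23 of the contacts, at PCGF2 sites on the left and other sites on the right, in both systems; labels give the nearest gene and the signed distance from the bait. Points include the pseudocount, lines are 95% Wilson intervals from the reads, and open points have 0 reads in a library. The PCGF2-site points lie left of 0 in PRC1DEG cells, whereas those at other sites lie on both sides of it.

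As a set, the other-site contacts of the same bait changed less than those at PCGF2 sites, though how they were listed bears on this. The other sites all lay between 294 and 1024 kb from the bait, 10 on the left towards Brms1l and Ralgapa1 and 4 on the right. The 3 with the most reads over both reference groups were on the left. The contact 449 kb away held 60 reads in untreated cells, 47 under OHT, 26 in Control and 37 in PRC1DEG cells. The contact 688 kb away, in an intron of Brms1l, held 41, 34, 21 and 23 reads in the same order. The contact nearest to Mbip, 294 kb away, held 17, 12, 10 and 7. None of these 3 was called by the exact binomial test.

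Of the 3 farthest, the contact near Ttc6, 1024 kb away and just beyond the Foxa1 contact, held 7 reads in untreated cells, 1 under OHT, 2 in Control and 1 in PRC1DEG cells. The contact near the Ralgapa1 TSS held 5, 8, 2 and 2 reads, and that near the Brms1l TSS held 12, 8, 6 and 6. With so few reads a 2-fold change of a single contact of this kind was not detectable.

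Over the 14 contacts the median log2 change was -0.17 under OHT and -0.09 in PRC1DEG cells, beside -0.17 and 0.09 for all named-bait contacts at other sites. The OHT median mixes 6 contacts called in untreated cells only, with changes from -2.38 to -0.13, and 5 called after OHT only, from 0.29 to 0.77. The listing thus acted in both directions here, whereas all 13 PCGF2-site contacts were called in a reference group. The summed normalized count was 89.5% of untreated after OHT and 98.5% of Control in PRC1DEG cells. The exact binomial test called 0 of the 14 in either direction in either system, and 0 passed at an unadjusted p under 0.05. The 4 contacts on the right, which lie among the PCGF2-site contacts, were at 56.4% of untreated (interval 31.1 to 102%) and 58.4% of Control (31.0 to 110%). The 10 on the left were at 95.4% (76.7 to 119%) and 110% (82.4 to 146%). These intervals overlapped, and those on the right rested on 31 and 24 reads in the reference libraries. At PCGF2 sites the level after OHT was 46.0% on the left (28.7 to 73.8%) and 42.6% on the right (40.3 to 44.9%). In PRC1DEG cells it was 19.3% on the left (10.7 to 34.7%) and 17.6% on the right (16.4 to 19.0%). The left side rested on 57 and 63 reads in the reference libraries, most of them at Npas3, so a difference between the sides could be missed.

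The share of the bait's listed reads that lay at PCGF2 sites does not depend on how libraries were scaled against each other. It was 95.9% in untreated cells (Wilson interval 95.3 to 96.4%) and 91.7% after OHT (90.4 to 92.9%). In Control cells it was 97.5% (97.0 to 97.9%) and in PRC1DEG cells 87.5% (85.2 to 89.4%). The share was lower in the treated library of each system, with p = 1.81e-11 after OHT and 6.82e-33 in PRC1DEG cells by two-sided Fisher's exact tests of the reads of both libraries. It does depend on how contacts were listed from these same libraries. All 13 PCGF2-site contacts were called in a reference group, whereas 5 of the 14 other sites were called after OHT only. These tests cannot separate the listing from a change of the share, and its part was not tested. Over contacts more than 200 kb away, which leaves out Nkx2-9 and Pax9, the share fell from 85.5% to 73.2% after OHT and from 89.7% to 58.3% in PRC1DEG cells. Between 600 and 1100 kb, where both kinds of contact lie, it fell from 90.3% to 81.2% and from 92.3% to 68.3%.

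**Figure D3:**
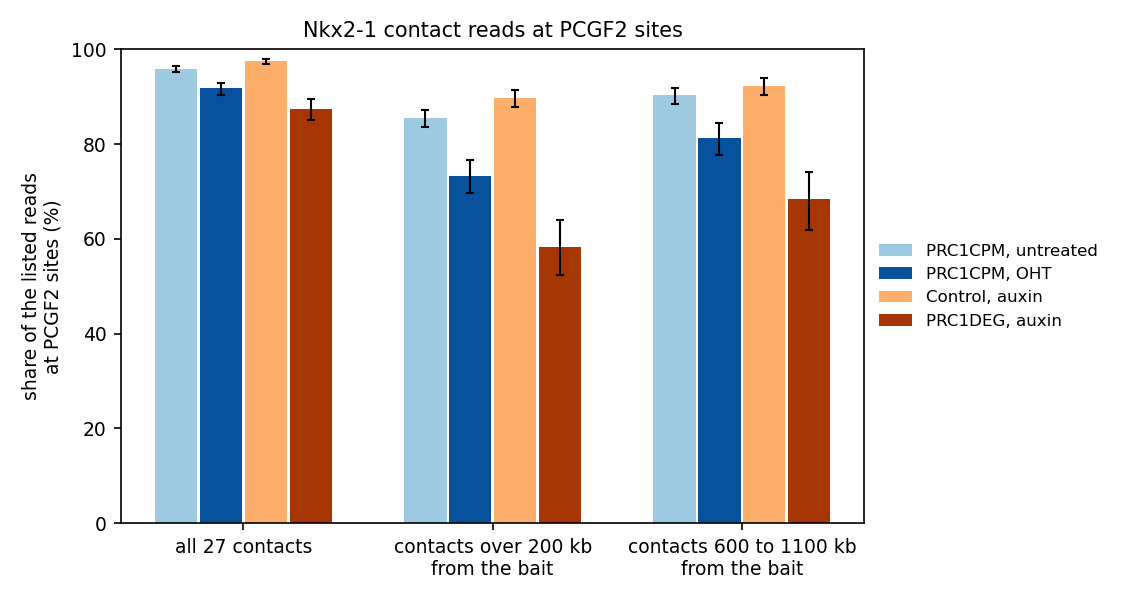
Share of the listed Nkx2-1 contact reads that lie at PCGF2 sites in each group, over all contacts, those more than 200 kb away and those 600 to 1100 kb away; bars start at 0 and lines are 95% Wilson intervals. The treated library of each system was below its reference in all 3 sets, and PRC1DEG cells were lowest. The contacts were listed by scores in these same libraries, which bears on the shares.

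Within the PCGF2 sites the contacts did not keep their proportions. In PRC1DEG cells Nkx2-9 rose from 19.8% to 28.6% of the bait's listed reads and Slc25a21 from 3.83% to 7.89%, whereas Pax9 went from 55.8% to 41.3% and Foxa1 from 15.4% to 7.68%. After OHT, Pax9 was at 51.0% beside 50.5% in untreated cells, Nkx2-9 went from 21.2% to 18.1% and Foxa1 from 17.8% to 13.3%. Among the 6 contacts with at least 30 reads in both reference groups, 15 pairs were compared in each system by the difference of their log2 changes, which is free of the scaling. The 95% interval left out 0 for 5 pairs after OHT and for 9 in PRC1DEG cells, with no adjustment for the number of pairs. Slc25a21 fell less than Foxa1 by 1.16 after OHT (0.80 to 1.51) and by 2.05 in PRC1DEG cells (1.52 to 2.58). Nkx2-9 fell less than Pax9 in PRC1DEG cells, by 0.97 (0.71 to 1.22). After OHT the order of this pair was the opposite, with a difference of -0.24 (-0.44 to -0.04).

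The difference between both systems was then taken for each contact, as the log2 change in PRC1DEG minus that after OHT. Its median over the 13 PCGF2-site contacts was -1.51, beside -0.67 for the PCGF2-site contacts of the other named baits and 0.25 for the other-site contacts of Nkx2-1. From the summed reads of the 13 contacts it was -1.27 (-1.40 to -1.14). In a Wald test on the reads adjusted over all 414 contacts, 4 of the 13 fell further in PRC1DEG cells. A difference below 0 was likewise called at 23 of the 414 contacts, and at 18 of the 117 PCGF2-site contacts of the other named baits. The difference was -1.75 at Foxa1 (-2.15 to -1.35), -1.63 at Pax9 (-1.81 to -1.44), -0.86 at Slc25a21 (-1.35 to -0.36) and -0.42 at Nkx2-9 (-0.68 to -0.16). At Sstr1 and Npas3 the differences of -1.91 and -1.75 had intervals below 0 but adjusted p of 0.176 and 0.261 by the Wald fit over all contacts. The systems also differ in cell line, treatment time, reference line and capture experiment, so these cannot be told apart from the kind of PRC1 loss.

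CHiCAGO scores, which weigh the reads on a fragment against those anticipated at its distance, gave the calls of contacts. A contact was called where its summit fragment scored at least 5. Of the 13 PCGF2-site contacts, 10 were called in untreated cells, 4 under OHT, 9 in Control and 1 in PRC1DEG cells. These counts depend in part on the listing, which required such a score in some library. All 13 were called in a reference group and 0 in a treated group only. Calls over all named baits are not set beside them here. Nkx2-9 was called in all 4 groups, with summit scores of 25.5, 8.31, 32.2 and 6.31 in the same order. Pax9 scored 12.9, 8.26, 51.8 and 4.48, Foxa1 29.8, 6.02, 27.5 and 0, and Slc25a21 14.01, 7.64, 8.34 and 0. These 3 were still called after OHT but not in PRC1DEG cells. Sstr1 scored 11.1, 1.69, 10.1 and 0 and Npas3 12.01, 0, 9.89 and 0, so both were called in the reference groups only. The summit score was 0 at 3 contacts in untreated cells, 5 under OHT, 1 in the Control line and 10 in PRC1DEG cells. The median of the mean score per fragment was 5.96 in untreated cells, 0.215 under OHT, 4.60 in Control and 0 in PRC1DEG cells.

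**Figure D4:**
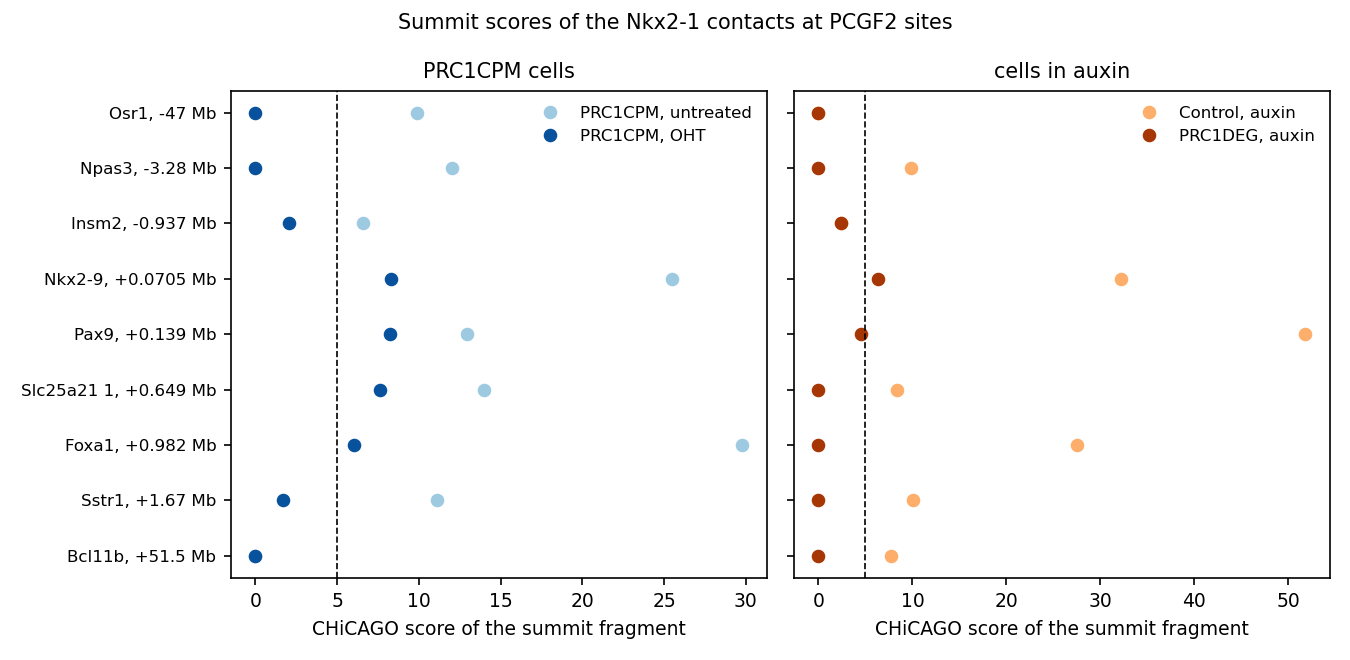
CHiCAGO score of the summit fragment at 9 PCGF2-site contacts of Nkx2-1, in PRC1CPM cells on the left and in auxin-treated lines on the right (the axes differ in range); the dashed line marks the score of 5 used for a call. Of the treated libraries, 4 points after OHT and 1 in PRC1DEG cells lie past the line.

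The calls at other sites behaved differently from the reads there. Of the 14, 7 were called in untreated cells, 7 under OHT, 2 in Control and 0 in the PRC1DEG line, and no contact was called in both reference groups. Of those called after OHT, 5 were called in no other group, although none was called by the test of reads. The one with the highest score after OHT, between Brms1l and Mbip at 663 kb, scored 1.74 in untreated cells and 5.85 after OHT with 6 and 9 reads.

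Among the 24 named baits Nkx2-1 had 13 PCGF2-site contacts, second to Dlx2 with 15. Over the 16 baits with at least 3 such contacts, its median change was the second lowest in PRC1DEG cells, after Eomes (-3.87 over 5 contacts with 45 reads in Control), and the eighth lowest after OHT. From the lowest, the rank in PRC1DEG cells was 1 of 16 from summed counts and 1 of 15 with at least 10 Control reads a contact, but 11 of 16 with a floor of 3 reads. By the distance between pairs of medians the baits most like it were Zfp503 (-0.82 after OHT and -2.22 in PRC1DEG), Hoxd10 (-1.16 and -2.02) and Sp5 (-1.22 and -2.02). Nkx2-2, the related homeobox gene whose promoter was also baited, had medians of -1.47 and -1.96 over 11 contacts. Its summed count was 36.7% of untreated after OHT and 23.0% of Control in PRC1DEG cells, beside 42.6% and 17.7% for Nkx2-1. These are descriptions of pooled libraries, and no difference between baits was tested. In the auxin columns the value of 1 read took 2 sizes, shared by 19 and by 25 baits. Nkx2-1, Nkx2-2, Hoxd10, Sp5 and Eomes were among the 19 and Zfp503 among the 25, and the labels do not say whether these were captured separately.

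**Figure D5:**
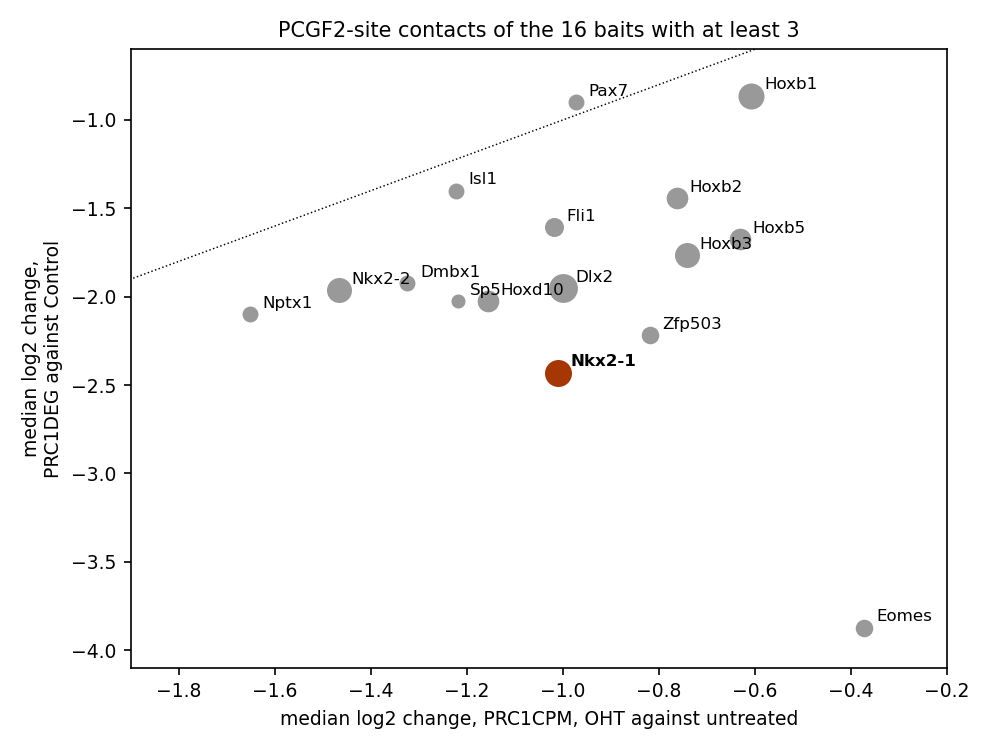
Median log2 change of the PCGF2-site contacts of each of the 16 baits with at least 3, after OHT (horizontal) and in PRC1DEG cells (vertical); the area of a point grows with the number of contacts, and the dotted line marks equal changes. Nkx2-1 lies at -1.01 and -2.43, below the line.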

How the data were processed

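Per the methods, the authors aligned paired-end reads with HiCUP and Bowtie2 to mm10, merged the 3 biological replicates of each group and obtained weighted read counts and scores with CHiCAGO. By the same methods, fragments that reached a score of 5 in some sample were pooled, and those fewer than 10 DpnII fragments apart were joined. Some listed contacts nonetheless lie closer than this, among them the other sites 672 and 674 kb to the right. The listed contacts are therefore not all separate loci. The deposited signal of a contact is its summed weighted read count, scaled by the authors to the reads at all captured promoters and to how many promoters were captured. The deposited score values are CHiCAGO scores. Versions of HiCUP and CHiCAGO are not given in the sources used here. The auxin experiment was a separate one, and its values fell on 2 steps, shared by 19 and 25 baits, which was read from the values alone.

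Values were taken per fragment. The smallest steps gave the value of 1 read, and 100% of the values came out whole at a tolerance of 0.1 reads. The depth of single contacts ranged from 0 to 2502 reads. Before log2 ratios, 0.000350 was added, the lowest value above 0 among named baits. The exact binomial test used the value of 1 read in each library as offset, with p-values adjusted over 414 contacts. The difference between systems used reads plus 0.5 and a Poisson variance. Scripts ran in Python 3.11.15 with scipy 1.17.1. The exact binomial test and the Wilson intervals of the ratios were checked on simulated data. The Wald test, the Fisher tests and the comparison of pairs were not checked in this way. All 48 bait oligonucleotides matched GRCm38 (mm10), and TSSs came from protein-coding transcripts of GENCODE M21 basic. Sequences were read from the RefSeq copy of GRCm38.

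PCGF2-site contacts were named by the gene with a TSS inside it or nearest to it. Of the other sites, those called in both reference groups or in all groups, the 3 with the most reads in the reference groups and the 3 farthest were named. The other-site contact with the highest score after OHT was chosen after its values were seen. The contacts, gene list and comparisons were chosen with earlier results of these data known. Alternatives covered the pseudocount, read floors, centring, distance, thresholds and offsets. Of the PCGF2-site contacts, 4 are not reported singly here, though they enter the counts, medians and sums. Replicate values, and contacts that passed no score threshold, were not analysed here.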

Additional observations from a re-analysis of the deposited data

Results flagged for a closer look

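At 4 PCGF2-site contacts of Nkx2-1 the log2 change differed between the systems by the Wald test of reads over all named-bait contacts. The change in PRC1DEG cells minus that after OHT was -0.42 at Nkx2-9, -1.63 at Pax9, -0.86 at Slc25a21 and -1.75 at Foxa1. All 4 fell further in PRC1DEG cells. Of all 414 contacts the same test called 23 with a difference below 0 and 6 above 0. The test compares 4 pooled libraries, and the cell line, the length of treatment and the capture experiment differ between the systems.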

How the results depend on the processing

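No paired analysis was possible because each deposited column merges the 3 replicates, and for the same reason no replicate could be left out. All 4 median changes against the reference groups kept within the counting interval of the median contact under every alternative run, with their signs at PCGF2 sites. The median difference between the systems was -1.51 and became -0.51 with a 10 times larger pseudocount, -0.64 with a floor of 3 reads and -1.27 from summed counts, and the cause was not tested. Taking contacts called in the other system, the window of 600 to 1100 kb and the ranks among baits under other settings were chosen after seeing the data.

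The share of reads at PCGF2 sites was 94.8, 89.9, 96.9 and 82.4% in untreated, OHT-treated, Control and PRC1DEG cells without Nkx2-9. It was 85.5, 73.2, 89.7 and 58.3% beyond 200 kb and 90.3, 81.2, 92.3 and 68.3% between 600 and 1100 kb. At a score of 10, calls at PCGF2 sites numbered 6, 0, 5 and 0, and 0 at other sites in untreated, OHT-treated and Control cells. At a score of 3, PRC1DEG cells had 2 calls at PCGF2 sites and 2 at other sites. By the mean score 0 PCGF2-site contacts were called after OHT and 0 in PRC1DEG cells. The median score by summit was 9.89 in untreated and 8.78 in Control cells, and the mean score over contacts was 0.875 after OHT and 0.297 in PRC1DEG cells. Scaled to contacts outside PCGF2 sites, whose median log2 change was -0.17 under OHT and 0.09 in PRC1DEG, the exact binomial test called 3 contacts lower after OHT, without Slc25a21, Sstr1 and Npas3. Adjusted over all 842 contacts it called 4, without Sstr1 and Npas3. Single-fragment contacts at PCGF2 sites held at most 8 reads in any library, and the spread between replicates is unknown.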
